A study of Mus musculus with 4 samples.

Results

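Endothelial genes were followed as 39 genes of blood and lymphatic endothelium. They were picked by their symbol from knowledge of the cell type, with earlier results of these data known. All 39 were found among the 24771 features of the expression table, each on 1 row. They were read in 2 samples of PSC-derived SG placodes, named induced embryonic salivary glands in the labels, and 2 samples of mouse E12.5 SMGs. The placodes were made from the mouse embryonic stem cell line 129w2, seeded at 3000 cells per well with 2% growth factor reduced Matrigel. They received BMP4 (2 ng/ml) on day 3, bFGF (25 ng/ml) with RA (1 μM) on day 4 and FGF10 (200 ng/ml) from day 6, and RNA was taken on day 10. The SMGs came from embryos at E12.5. Their strain, the way they were dissected and any pooling of embryos are not given in the sources used here, so the share of mesenchyme and vessels in that tissue is not known. The samples of one group were not said to come from separate cultures or litters, so p-values measure only the spread between these samples. The placodes stand for 1 cell line.

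Endothelial cells form the inner lining of blood and lymphatic vessels. They are held together by junction proteins such as VE-cadherin, they read growth factors of the VEGF and angiopoietin families through receptor tyrosine kinases, and their identity is set by transcription factors of the ETS and SOXF families. In the embryo, vessels grow through the mesenchyme around the epithelial bud of the submandibular gland, and they bring the first blood cells there.

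Expression was given as FPKM, the fragments of a gene scaled by its transcript length and by all mapped fragments of the sample, a level per length that can be compared between genes. The FPKM values summed to between 361963 and 384773 per sample, the read depth is unknown, and the median log2 fold change of all tested features was -0.05. Differences are placodes minus SMGs on the scale of log2(FPKM + 1), which understates the change of genes near 0. They were tested with limma over the 13193 features with a mean of at least 1 FPKM, with Benjamini-Hochberg adjustment, and a gene was called at an adjusted p below 0.05. By an exact permutation test, 2 samples against 2 cannot give a two-sided p below 0.33.

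The SMGs expressed nearly the whole endothelial list, whereas most of it was close to 0 in the placodes. In both SMG samples, 37 of the 39 genes were at 1 FPKM or above, and 18 were above 10 FPKM. In both placode samples, 10 genes reached 1 FPKM, and only Prox1 and Pdpn were above 10 FPKM. The FPKM of the 39 genes added up to 442 and 455 in the SMGs and to 87.3 and 78.3 in the placodes. The placode mean of this sum was 18.5% of the SMG mean. Prox1 and Pdpn, which are shared with other cell types, were then left out because they were the 2 genes called higher in the placodes. Without them, the sums were 425 and 435 against 35.6 and 29.8, and the placode mean was 7.61% of the SMG mean. This lower share follows in part from that choice. Both sums gave an exact two-sided permutation p = 0.33, the smallest possible. In bulk RNA, fewer endothelial cells and less RNA per cell cannot be told apart.

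Endothelium was defined by 5 genes of the list, Pecam1, Cdh5, Kdr, Tek and Tie1. As members of the list they are no separate check of the sample labels. In the SMG samples these lay between 6.90 (Tek) and 35.4 FPKM (Cdh5). In the placodes, 4 of the 5 were below 1 FPKM in both samples, and Cdh5 was not.

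Of the 39 genes, 36 passed the minimum of 1 FPKM and were tested. A total of 34 were lower and 2 were higher in the placodes, and none of the 36 was left uncalled. Over all tested features, 76.2% were called, with 40.4% lower and 35.7% higher. On this scale, a fold of at least 2 was found for 33 of the 34 lower genes, where 15.2% of all tested features were lower by that much. These counts cannot be read as support on their own, since 24 of the 36 were below 1 FPKM in both placode samples and passed the minimum through the SMGs alone. Before any minimum, the 2 placode values of 37 genes lay below the 2 SMG values, and those of the other 2 genes lay above them, so that the groups overlapped for none of the 39. They overlapped for none of the 36 tested genes either, where 88.4% of all tested features had no overlap. The median log2 fold change of the tested endothelial genes was -2.65.

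**Figure D1:**
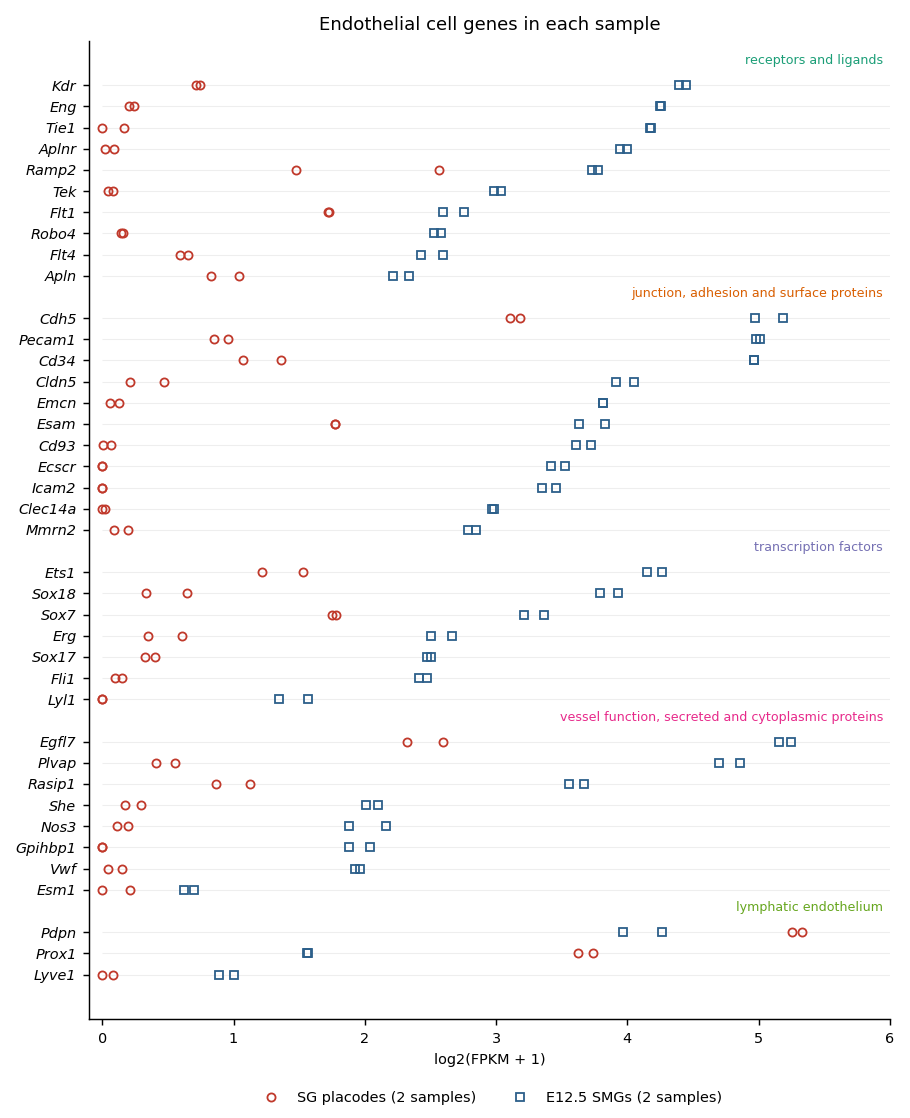
Level of each of the 39 endothelial genes on the scale of log2(FPKM + 1), with circles for the 2 SG placode samples and squares for the 2 E12.5 SMG samples, grouped by role and ordered by the SMG level. The circles lie to the left of the squares for 37 genes, and to the right for Pdpn and Prox1.

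**Figure D2:**
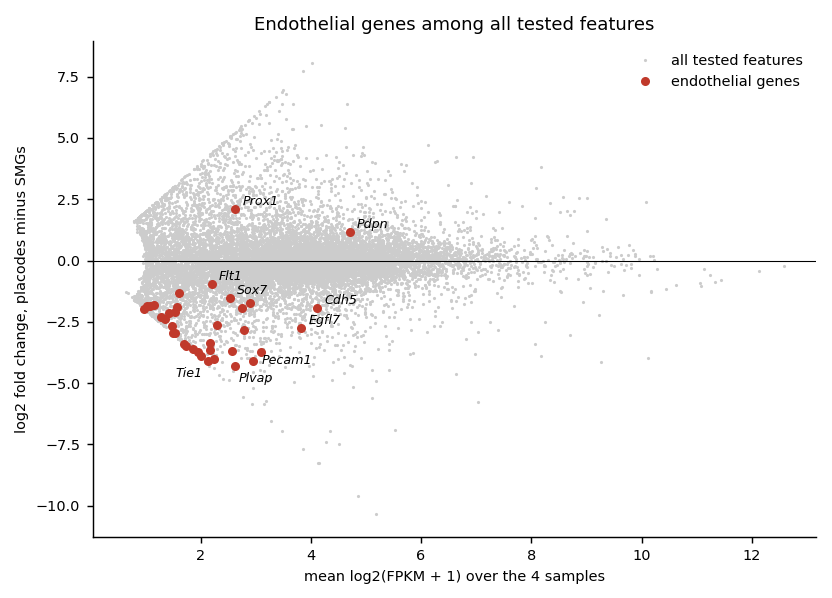
Log2 fold change (placodes minus SMGs, vertical axis) against the mean log2(FPKM + 1) over the 4 samples (horizontal axis) for all 13193 tested features in grey and the 36 tested endothelial genes in red. All red points lie below 0 except Prox1 and Pdpn, and many lie near the lower edge of the cloud, where the placode value is close to 0.

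The ETS factors Ets1, Erg and Fli1 bind DNA at a GGAA core, and many endothelial promoters are known to carry such sites. The promoters were therefore searched for ETS words, and those of 3 lower genes with a match are shown beside a gene that was higher. RefSeq promoters (GRCm38.p6, 250 bases before to 50 bases after an annotated start) were matched for 20 of the 39 genes, in 25 windows. The windows below run 5′ to 3′ along the gene, and the capitals mark CAGGAAG or its reverse complement. They were picked by hand after the matches had been seen, and 4 other lower genes with this word are named below but not shown.
Robo4, chr9:37401722-37402021, plus strand: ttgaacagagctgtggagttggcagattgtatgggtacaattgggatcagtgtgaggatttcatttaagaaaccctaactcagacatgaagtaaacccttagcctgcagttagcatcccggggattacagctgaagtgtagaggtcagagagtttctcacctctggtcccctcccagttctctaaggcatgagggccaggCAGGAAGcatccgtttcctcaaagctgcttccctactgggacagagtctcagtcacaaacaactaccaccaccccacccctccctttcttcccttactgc
Egfl7, chr2:26580833-26581132, plus strand: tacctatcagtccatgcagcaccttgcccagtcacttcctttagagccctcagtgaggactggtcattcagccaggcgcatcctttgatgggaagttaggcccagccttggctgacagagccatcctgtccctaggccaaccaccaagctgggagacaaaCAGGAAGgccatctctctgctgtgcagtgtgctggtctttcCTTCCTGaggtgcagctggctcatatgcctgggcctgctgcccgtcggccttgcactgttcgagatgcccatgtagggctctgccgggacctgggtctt
Erg, chr16:95459299-95459598, minus strand: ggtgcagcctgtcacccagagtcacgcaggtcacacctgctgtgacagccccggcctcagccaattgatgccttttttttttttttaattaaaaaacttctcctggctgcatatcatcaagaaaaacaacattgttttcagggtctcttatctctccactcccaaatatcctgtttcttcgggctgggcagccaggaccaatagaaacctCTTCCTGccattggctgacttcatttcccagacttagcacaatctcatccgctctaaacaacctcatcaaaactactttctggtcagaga
Prox1, chr1:190170778-190171077, minus strand, no match: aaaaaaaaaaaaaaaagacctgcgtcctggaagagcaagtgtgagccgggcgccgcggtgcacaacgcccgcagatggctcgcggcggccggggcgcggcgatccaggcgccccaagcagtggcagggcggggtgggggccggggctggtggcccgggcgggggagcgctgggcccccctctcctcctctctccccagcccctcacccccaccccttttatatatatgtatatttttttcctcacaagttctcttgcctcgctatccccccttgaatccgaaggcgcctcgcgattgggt

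CAGGAAG, searched on both strands, was present in 7 of the 20 genes, or 35% (Robo4, Apln, Emcn, Cd34, Erg, Egfl7 and Rasip1), against 14.8% of all 27025 genes with a promoter window. In the windows shown, the word began 50 bases before the start in Robo4, 90 and 49 bases before it in Egfl7, and 40 bases before it in Erg. CCGGAAG was present in 1 of the 20 genes, Lyl1, against 9.93% of all genes. No 7 bases match both words, and 8 of the 20 genes (40%) held either, against 23.1% of all genes. The SOX word ACAAAG was present in 6 of the 20 genes (30%), against 21%, and ACAATG in 1, against 14.3%. The E-box CANNTG, the type of site read by Lyl1 and Tal1, was in 16 of the 20 genes (80%) and in 75% of all genes. The GATA word AGATAA was in 2 of the 20, against 12.7%. Both genes that were higher in the placodes, Prox1 and Pdpn, had none of the ETS words in their windows and had ACAAAG. This does not set them apart from the genes with lower values. Kdr, Flt1, Flt4, Tek, Tie1, Eng, Cldn5, She, Clec14a and Esm1 also had no ETS word in their windows. ACAAAG was also present in Tek, Eng, Apln and Egfl7. GGAA cores outside the 2 ETS words were not counted, and the Prox1 window shown and those of Kdr and Tie1 hold such cores. Some of these genes have several annotated starts, and a gene was counted if any of its windows held the word. A word in a promoter is a description of the sequence and not a site of binding.

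The receptors and ligands of the list were all lower in the placodes, 10 of 10 genes, with a median log2 fold change of -2.67. Of all tested features, 40.4% were lower. Kdr, Eng, Tie1, Aplnr, Tek, Robo4 and Flt4 were below 1 FPKM in both placode samples and passed the minimum through the SMGs alone. Kdr (ENSMUSG00000062960, chromosome 5, 75932827 to 75978458 on GRCm38) encodes the main signalling receptor for VEGF-A. Its FPKM was 0.643 and 0.672 in the placodes and 20.04 and 20.77 in the SMGs, with a log2 fold change of -3.69 (SE 0.09, adjusted p = 4.82e-07). Eng, a co-receptor for BMP9 and BMP10, was at 0.153 and 0.184 in the placodes against 18.1 in both SMG samples. Tie1, an orphan receptor that works with Tek, was listed at 0 and at 0.122 in the placodes, and at 17.1 and 17.2 in the SMGs. These were the 3 most abundant receptors of the list in the SMGs, and all 3 were below 1 FPKM in the placodes.

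Other members of this group were less far apart. Flt1, which binds VEGF-A, VEGF-B and PlGF and limits signalling through Kdr, had an FPKM of 2.32 and 2.29 in the placodes and 5.05 and 5.74 in the SMGs. Its log2 fold change was -0.95 (SE 0.10, adjusted p = 2.38e-04). Flt1 was the lower gene that missed 2-fold on the log2(FPKM + 1) scale, while the ratio of its mean FPKM was 2.34, and with a pseudocount of 0.1 its log2 fold change was -1.19. Ramp2, which joins Calcrl to form the receptor for adrenomedullin, was at 4.93 and 1.78 in the placodes and 12.7 and 12.3 in the SMGs. Its placode samples differed by 2.77-fold, and the annotation has 637 bases of a Ramp2 exon shared with Vps25 on the same strand. Without SMG replicate 1 or without SMG replicate 2, Ramp2 was no longer called (adjusted p = 0.0587 and 0.0554). Aplnr, the apelin receptor, was at 0.0161 and 0.0612 against 14.37 and 14.97. Apln, its ligand, was at 0.776 and 1.06 against 3.64 and 4.05. Tek, Robo4 and Flt4 were between 0.0302 and 0.572 FPKM in the placodes and between 4.38 and 7.23 in the SMGs.

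All 11 genes of junctions and of the cell surface were lower in the placodes, with a median log2 fold change of -3.47. The share of lower genes over all tested features was 40.4%. Apart from Cdh5, Cd34 and Esam, the genes of this group were below 1 FPKM in both placode samples. They passed the minimum through the SMGs alone. Pecam1 (ENSMUSG00000020717, chromosome 11, 106654217 to 106750628), the adhesion molecule CD31, was at 0.941 and 0.807 in the placodes and 30.6 and 31.2 in the SMGs, which gave the smallest adjusted p of the list (log2 fold change -4.09, SE 0.08, adjusted p = 3.29e-07). Cd34, a sialomucin of vessels and of blood progenitors, was at 1.57 and 1.10 against 30.3 and 30.2. Cdh5 (ENSMUSG00000031871, chromosome 8, 104101625 to 104144511), which encodes VE-cadherin, was at a higher level in the placodes than the rest of this group. It was at 8.07 and 7.60 in the placodes and 30.3 and 35.4 in the SMGs (log2 fold change -1.93, SE 0.09, adjusted p = 5.19e-06). Its level in the placodes was the third of the 39 genes, behind Pdpn and Prox1, and its annotated exons overlap those of no other gene.
Esam, another junction molecule, was also above 1 FPKM in the placodes, at 2.42 and 2.43 against 11.4 and 13.2. The remaining 7 genes of the group were at 0.385 FPKM or below in the placodes. Icam2 and Ecscr were listed at 0 in both placode samples, with 9.20 to 10.5 FPKM in the SMGs. Clec14a and Cd93, receptors that bind the matrix protein Mmrn2, were at 0.0496 or below in the placodes and between 6.84 and 12.2 in the SMGs. Mmrn2 itself was at 0.144 and 0.0613 against 5.91 and 6.19. Cldn5, the tight junction claudin of vessels, and the sialomucin Emcn were between 0.0390 and 0.385 in the placodes and between 13.1 and 15.6 in the SMGs.

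Among the 7 transcription factors, 6 were tested and all 6 were lower in the placodes, with a median log2 fold change of -2.22. The share of lower genes over all tested features was 40.4%. Sox18, Sox17, Erg and Fli1 were below 1 FPKM in both placode samples and passed the minimum through the SMGs alone. Ets1 was the most abundant in the SMGs, at 18.2 and 16.7 FPKM, and was at 1.33 and 1.89 in the placodes (log2 fold change -2.83, SE 0.13, adjusted p = 4.90e-06). The SOXF factors, which act together in vessel formation, were unequal. Sox18 was at 0.561 and 0.260 against 14.3 and 12.8. Sox17 was at 0.318 and 0.254 against 4.67 and 4.55. Sox7 was at 2.36 and 2.44 in the placodes, higher than Sox18 and Sox17 there, against 9.28 and 8.29 in the SMGs (log2 fold change -1.52, SE 0.10, adjusted p = 2.17e-05). The ETS factors most restricted to endothelium and blood, Erg and Fli1, were between 0.0710 and 0.524 in the placodes and between 4.32 and 5.33 in the SMGs. Lyl1, a bHLH factor of blood and endothelial cells, was at 1.54 and 1.96 in the SMGs and was listed at 0 in either placode sample. It was not tested, since its mean was below 1 FPKM.

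Of the 8 genes for vessel function and for secreted or cytoplasmic proteins, 7 were tested. All 7 were lower in the placodes, with a median log2 fold change of -1.96, where 40.4% of all tested features were lower. Plvap, Nos3, Vwf, She and Gpihbp1 were below 1 FPKM in both placode samples and passed the minimum through the SMGs alone. Egfl7, a secreted protein of sprouting vessels, was the most abundant endothelial gene of the SMGs at 34.6 and 37.1 FPKM, and was at 5.04 and 3.99 in the placodes (log2 fold change -2.75, SE 0.10, adjusted p = 2.66e-06). Its annotated exons overlap 4 other genes, among them the miRNA genes Mir126a and Mir126b, which lie within Egfl7. Plvap, which forms the diaphragms of fenestrae and caveolae, was at 0.328 and 0.465 against 24.9 and 28.0 (log2 fold change -4.30, SE 0.10, adjusted p = 5.32e-07). This was the largest fold on the log2(FPKM + 1) scale, but not in the ratio of mean FPKM or with a pseudocount of 0.1. With that pseudocount several genes passed Plvap (-5.75), among them Tie1 (-6.85), Aplnr (-6.75), Emcn (-6.335) and Eng (-6.08). Rasip1, a Ras-interacting protein needed for vessel lumens, was at 1.18 and 0.827 against 11.7 and 10.8. The remaining 5 genes were less abundant in the SMGs. Nos3, Vwf, She and Gpihbp1 lay between 2.67 and 3.48 FPKM there and at 0.227 or below in the placodes, with Gpihbp1 listed at 0 in both. Esm1, a tip cell proteoglycan, was at 0.539 and 0.627 in the SMGs and at 0.160 and 0 in the placodes, and was not tested.

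The 3 genes chosen for lymphatic endothelium did not all differ in the same direction. Lyve1, the hyaluronan receptor of lymphatic vessels and some macrophages, was at 1.01 and 0.853 FPKM in the SMGs, was at 0.0573 and 0 in the placodes, and was not tested. Prox1 (ENSMUSG00000010175, chromosome 1, 190118035 to 190170714), the homeobox factor that specifies lymphatic endothelium, was at 12.4 and 11.3 in the placodes and 1.96 and 1.94 in the SMGs (log2 fold change 2.12, SE 0.09, adjusted p = 4.24e-06). In the annotation, 133 bases of Prox1 exons overlap Prox1os on the opposite strand, and reads of the 2 genes cannot be told apart if strand was not used. Pdpn, the mucin-like protein podoplanin, was at 39.4 and 37.2 in the placodes against 14.7 and 18.2 (log2 fold change 1.18, SE 0.10, adjusted p = 8.48e-05). Prox1 and Pdpn were thus higher in both placode samples, while Flt4, the VEGF-C receptor of lymphatic vessels, was lower. Prox1 is also known from neural progenitors and young neurons, and Pdpn from epithelia, mesothelium and neural tissue. All 8 listed neural genes were higher in the placodes, with a summed FPKM of 963 and 998 against 111 and 102 in the SMGs. Over all tested features, 35.7% were higher, and the neural genes Sox1 and Pax6 passed the minimum through the placodes alone. The part of neural cells in the level of Prox1 and Pdpn was not tested.

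**Figure D3:**
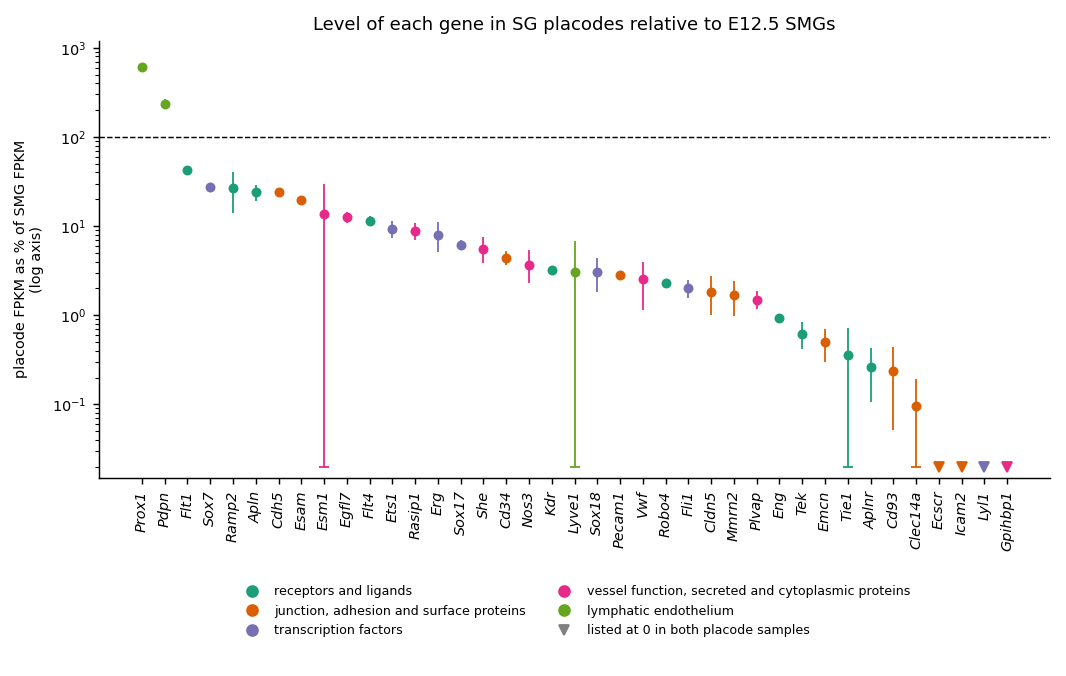
Mean FPKM of each gene in the SG placodes as a percentage of its mean in the E12.5 SMGs, on a log axis, with bars from the lowest to the highest ratio between single samples (a bar with a foot reaches 0) and colours for the roles. The dashed line marks equal levels, and the genes run from Prox1 at 607% and Pdpn at 233% through Flt1 at 42.7% to 4 genes listed at 0 in both placode samples.

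The 37 genes with lower values did not differ by a common factor. Their level in the placodes, as a percentage of the SMG mean, had a median of 3.03%. It was 20% to 50% for 5 genes (Flt1, Ramp2, Apln, Cdh5 and Sox7) and 10% to 20% for 4 (Flt4, Esam, Egfl7 and Esm1). For 5 genes it was 5% to 10%, for 12 it was 1% to 5%, and for 7 it was above 0 and at most 1% (Tek, Tie1, Eng, Aplnr, Emcn, Clec14a and Cd93). The 4 others, Icam2, Ecscr, Lyl1 and Gpihbp1, were listed at 0. The order of the genes by level was only partly shared between the tissues, with a Spearman's rho of 0.45 across the 37 genes and 0.38 across all 39. The genes share libraries and are not independent. For the 22 genes under 0.5 FPKM in both placode samples, the placode order rests on values near 0.
Ratios within a sample do not depend on its scaling, and they differed between the tissues for some genes. The FPKM of Cdh5 was 8.58 and 9.41 times that of Pecam1 in the placodes, and 0.991 and 1.13 times that of Pecam1 in the SMGs. For Egfl7 the ratio was 5.36 and 4.94 against 1.13 and 1.19, and for Flt1 it was 2.46 and 2.84 against 0.165 and 0.184. Kdr kept close to Pecam1 in both tissues, at a ratio of 0.683 and 0.833 against 0.655 and 0.666. For Tie1 the ratio was 0 and 0.151 in the placodes and 0.557 and 0.551 in the SMGs. These genes were picked after their levels had been seen, and their ratios are given as a description.

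Genes that act with the endothelial receptors were read from a list of 31 ligands, receptors and junction partners. Of the 29 tested, 18 were lower and 8 were higher in the placodes, 3 were not called, and the median log2 fold change was -0.84. Over all tested features, 40.4% were lower and 35.7% were higher, so the 8 higher genes were a smaller share than that. Among the lower genes, Angpt2, Acvrl1, Gja4, Gja5, Calcrl, Pdgfb and Adgrl4 were below 1 FPKM in both placode samples. They passed the minimum through the SMGs alone, and Adm and Vegfd passed it through the placodes alone. Some ligands of the endothelial receptors were among the higher genes, and others, Vegfc, Angpt2 and Dll4 among them, were lower. Vegfc was at 2.48 and 2.52 FPKM in the placodes against 5.06 and 4.90 in the SMGs. Vegfa was at 88.5 and 91.0 FPKM in the placodes against 24.6 and 23.1 (log2 fold change 1.87, SE 0.05, adjusted p = 8.44e-07), the opposite direction from its receptors Kdr and Flt1. Adm, which encodes adrenomedullin, had the largest fold change of the higher genes. It was at 10.7 and 10.1 in the placodes against 0.843 and 0.255 in the SMGs. Both parts of its receptor, Calcrl and Ramp2, were lower. Vegfb, Vegfd, Bmpr2, Notch1, Hey1 and Ackr3 were also higher, by 0.25 (Bmpr2) to 1.14 (Vegfd) on the log2 scale. The 3 that were not called were Pgf (log2 fold change 0.19), Angpt1 (-0.31) and Ramp3 (0.20).
The lowest fold change belonged to Gja5, a connexin of arterial endothelium, at 0.0199 and 0.0480 FPKM in the placodes against 7.87 and 7.93. The 3 partners with the highest SMG levels were also lower, but were at 10.4 FPKM or above in the placodes. Nrp2, a co-receptor for VEGF-C and semaphorins, was at 48.6 and 51.1 against 122 and 139. Efnb2, an ephrin of arteries, was at 27.7 and 28.6 against 96.9 and 102. Its venous receptor Ephb4 was at 10.7 and 10.4 against 84.6 and 84.8.

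Among 11 other transcription factors of endothelial and blood cells, 10 were tested, with a median log2 fold change of -1.76. Of these, 8 were lower, 1 was higher and 1 was not called, where 40.4% of all tested features were lower and 35.7% higher. Tal1, Hhex, Mef2c and Klf2 were below 1 FPKM in both placode samples and passed the minimum through the SMGs alone. Mef2c had the lowest fold change on the log2(FPKM + 1) scale, at 0.335 and 0.599 FPKM against 14.4 and 11.4 (log2 fold change -3.24, SE 0.15, adjusted p = 6.00e-06). In the ratio of mean FPKM, Hhex was lower, at 0.0756 and 0.0290 against 2.32 and 2.39, which is 2.22% of the SMG mean against 3.62% for Mef2c. Nr2f2, a factor of veins and lymphatics that mesenchyme also expresses, was the most abundant, at 20.9 and 21.8 against 77.1 and 82.1. Elk3, an ETS factor, was at 4.57 and 4.65 against 22.7 and 24.7. Gata2, which neural progenitors also express, was the higher gene, at 2.96 and 3.15 against 1.03 and 1.06 (log2 fold change 0.99). Lmo2 was at 7.54 and 11.3 in the placodes and 8.50 and 9.52 in the SMGs, and was not called (log2 fold change 0.04, SE 0.17, adjusted p = 0.853). Etv2, which starts the endothelial programme earlier in the embryo, was at 0.0600 in SMG sample 1 and was listed at 0 in the other 3 samples.

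Markers of the cells that come with vessels were lower in the placodes to different degrees. Over all tested features, 40.4% were lower and 35.7% were higher. The 11 erythroid genes, globins among them, summed to 3062 and 3057 FPKM in the SMGs and to 0.224 and 0.399 in the placodes, where 7 were listed at 0 in both samples. All 8 that were tested were lower. These 8 were at 0.124 FPKM or below in the placodes and passed the minimum through the SMGs alone, so their count is no support. Of 10 leukocyte genes, 7 were tested and 6 were lower. Of these 6, only Csf1r was at 1 FPKM or above in the placodes, and the others passed the minimum through the SMGs alone. The summed FPKM of the 10 genes was 31.3 and 27.7 in the SMGs against 10.6 and 10.3 in the placodes. In the placodes, Coro1a alone made up 8.06 and 7.15 of that sum, and Adgre1, Itgam, Cx3cr1 and Tyrobp were listed at 0. Of 8 megakaryocyte genes only Pf4 was tested, and it was lower, at 0 in both placode samples against 3.96 and 2.97. Pf4 too passed the minimum through the SMGs alone. Of 9 mural cell genes, 7 were tested, 5 were lower, Notch3 was higher and Tagln was not called. Among the lower ones, Cspg4, Kcnj8 and Abcc9 passed the minimum through the SMGs alone. The mural sum was 45.8 and 45.6 in the placodes against 93.1 and 87.0, and without Notch3 it was 18.9 and 17.8 against 71.8 and 65.7. Pdgfrb, the PDGF receptor of pericytes and mesenchyme, was at 6.59 and 6.55 against 20.04 and 22.62. Abcc9, a channel subunit of pericytes, was at 0.0682 and 0.0606 against 6.59 and 6.82.
The 8 mesenchyme genes were all lower, with a sum of 212 and 208 FPKM in the placodes against 2107 and 2053, but all 8 were at 1 FPKM or above in the placodes. Of 8 epithelial genes, 6 were lower and Krt8 and Krt18 were not called, where 40.4% of all tested features were lower. Their sum was 61.3 and 66.1 against 269 and 231, and Krt5 and Krt14 were listed at 0 in the placodes. The lower endothelial values went together with lower values of blood, mural, mesenchyme and most epithelial genes and with higher values of neural genes, and the part of each in the comparison was not tested.

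**Figure D4:**
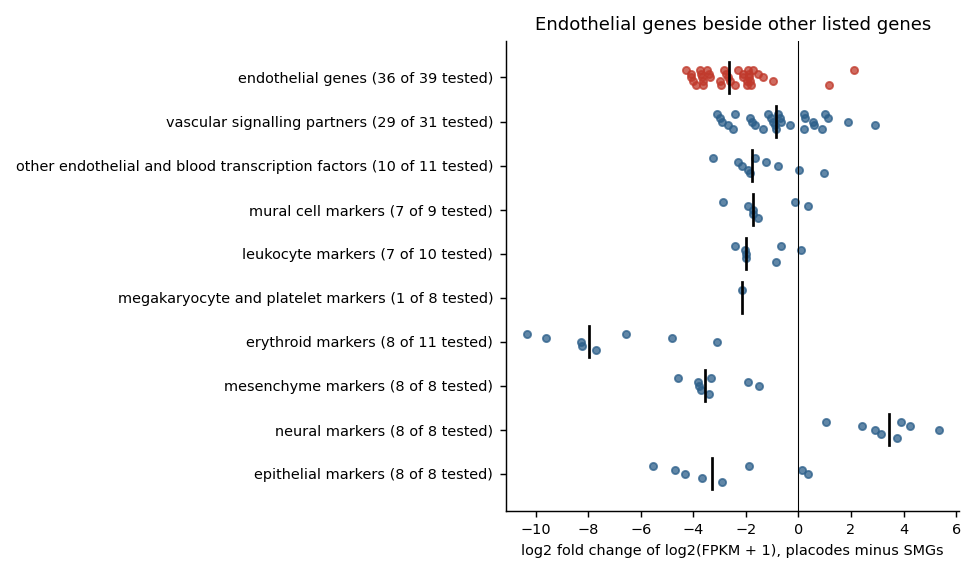
Log2 fold change (placodes minus SMGs) of each tested gene in the endothelial list (red) and in the other lists (blue), with a black bar at each list's median. The endothelial median of -2.65 lies between that of the mesenchyme genes at -3.55 and that of the mural cell genes at -1.71 on the log2(FPKM + 1) scale. Nearer to it lie the medians of the epithelial genes at -3.30 and the leukocyte genes at -1.98, and Pf4 at -2.15. In percent of the SMG mean FPKM the order differs, with medians of 3.13% for the tested endothelial, 7.99% for the mesenchyme and 28% for the mural cell genes. The epithelial median was 6.5% and the leukocyte median 2.65%. The neural genes alone lie wholly to the right of 0.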

How the data were processed

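RNA of 2 placode and 2 SMG samples was read by paired-end Illumina sequencing. The authors mapped the reads with HISAT2 and deposited 1 FPKM value per gene and sample. The submitters' processing notes name GRCm38 and GRCh38 as builds. The HISAT2 version, the annotation, the strandedness and the program behind the FPKM values are not given in the sources used here. Of 22036 Ensembl genes, 22022 were found in GENCODE M21 (GRCm38), which supplied the coordinates and shared exons. Another 2735 features had no Ensembl identifier.

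A pseudocount of 1 was added to FPKM before taking log2. The test was that of limma 3.58.1 (R 4.3.3), run on features whose mean over the 4 samples was at least 1 FPKM (lmFit, eBayes with trend, two-sided, group as the only term), and p-values were adjusted by Benjamini-Hochberg over all 13193. The procedure was tested on simulated data. The files hold no counts, so depth, counting intervals and detection floors are unknown. Figures were drawn with matplotlib 3.10.9 in Python 3.11.15.

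No column of another sample was present. The members, gene lists and tests were chosen with earlier results of these data known. Values per sample were given for the 3 endothelial genes of each role with the highest SMG mean, for endothelial genes at 1 FPKM or above in both placode samples, and for the 2 higher ones. Among the signalling partners and the other transcription factors, the genes with the extreme fold changes, the most abundant and the higher ones were named. In the remaining lists this rule was not followed in full. Other genes singled out were named after their values were seen. Alternatives were pseudocounts of 0.1 and 0.01, no minimum or a minimum of 5 FPKM, 3 other scalings, a replicate block, other eBayes settings, detection at 0.1 or 5 FPKM, and leaving out each sample.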

Additional observations from a re-analysis of the deposited data

How the results depend on the processing

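Across pseudocounts, scalings (TPM, median-ratio, quantile) and eBayes settings, all 36 tested endothelial genes kept their direction and their call. Leaving out 1 sample at a time gave 33 to 34 lower genes, and the call lost was that of Ramp2. The replicate number was used as a block, which gave 34 lower and 2 higher genes and changed no call on a member. The labels do not say that equal numbers share a litter or batch, and the deviations of same-numbered samples had a correlation of -0.03 across features. A minimum of 5 FPKM tested fewer genes, which lowered the counts. With pseudocounts of 0.1 and 0.01, all 34 lower genes were at least 2-fold lower. At the minimum of 5 FPKM the lower endothelial genes were 19, all at least 2-fold, with 5 receptors and ligands, 3 transcription factors and 3 genes of vessel function. In the other lists, 9 signalling partners, 3 transcription factors and 2 mural genes were lower. Among the other transcription factors 0 were higher and among the leukocyte genes 0 were lower, both set by the minimum, which left 4 factors without Gata2 and, of the leukocyte genes, Coro1a (0 at an unadjusted limma p below 0.05). Without a minimum, 37 endothelial genes were lower, among them 1 of the lymphatic group, Lyve1. At a detection level of 0.1 FPKM, 23 endothelial genes were present in both placode samples, and 3 at 5 FPKM. Among the 29 genes that share no exon with another gene, an alternative chosen after seeing the data, 26 were lower and 1 was higher, since Prox1 shares an exon. The depth is unknown, so values near 0 in the placodes cannot be separated from absence.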

Other observations

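Of 10 genes often used as references, 4 were lower and 5 were higher in the placodes and 1 was not called, where 40.4% of all tested features were lower and 35.7% higher. Pgk1, a glycolytic enzyme, was at 951 and 914 FPKM in the placodes against 162 and 145 in the SMGs. Gapdh was at 44.6 and 25.0 against 12.4 and 10.4, and Ppia was at 356 and 157 against 522 and 615, so both differed between the placode samples, as did Ramp2 of the endothelial list. Actb was lower by 0.60 on the log2 scale.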
